A study of Mus musculus with 12 samples.

Results

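The gene group described here is the aminoacyl-tRNA synthetases, the enzymes that join each amino acid to its transfer RNA. Its members were fixed by name and not by their measured values: 20 genes whose enzymes work in the cytosol and 16 whose enzymes work in mitochondria, 36 in all. A member counted as measured where the array annotation gave a probe set exactly 1 symbol and that symbol was a member's. This held for 26 of the 12393 genes measured, 18 of the 20 cytosolic and 8 of the 16 mitochondrial ones. Dars and Mars of the cytosolic set, and Aars2, Cars2, Lars2, Mars2, Nars2, Vars2, Wars2 and Yars2 of the mitochondrial set, were not named on such a probe set. Where a gene had several probe sets, the one of highest average signal across all 12 arrays stands for it.

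Cytosolic synthetases charge the transfer RNAs that ribosomes of the cytosol use, and mitochondrial synthetases, also encoded in the nucleus, charge those used to make the few proteins encoded by mitochondrial DNA. Most amino acids have a separate gene for each compartment, but Gars and Kars each encode both forms of their enzyme. Several cytosolic synthetases sit in a multisynthetase complex held together by the scaffold proteins Aimp1, Aimp2 and Eef1e1. Uncharged transfer RNA activates the kinase GCN2, encoded by Eif2ak4, which phosphorylates the initiation factor eIF2, and this favours translation of the transcription factor ATF4. Many cytosolic synthetase genes are known targets of ATF4, along with genes of amino acid synthesis and transport.

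The cells were primary embryonic fibroblasts of wild-type and of HtrA2 knockout (KO) mice; HtrA2 is a protease of the mitochondrial intermembrane space. At passage 4 they received vehicle or 1 µM rotenone for 4 h. Rotenone inhibits complex I of the respiratory chain. Both genotypes were measured with both treatments on 3 arrays each, which gives 4 groups. The sources used here do not give the mouse strain, how the knockout was made or how many embryos each culture came from. Values are log2 probe set signals, so a difference of 1 is a 2-fold change, and differences of levels between genes say nothing of their abundance. For the wild-type arrays with rotenone, 1 label entry names the knockout, but their titles, sources and descriptions name the wild type, which was used. Htra2 read 8.83 to 9.32 on the 6 arrays grouped as wild type, with at least 9.02 on the rotenone ones, and 7.57 to 7.87 on the 6 knockout arrays. All 11 measured fibroblast markers, among them collagens and vimentin, lay above the 40th percentile of probe sets. So did 5 of 11 leukocyte, 5 of 8 neural, 3 of 8 epithelial, 2 of 8 endothelial and 2 of 8 muscle markers. The 4 arrays numbered 3, 1 in each group, stood apart from the other 8, with 5409 of 22626 probe sets (23.9%) past an adjusted p of 0.05 in limma between them. Nothing in the labels says that replicates came from separate cultures, so every p-value reflects the spread among these samples alone, and that spread could be technical.

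Averaged over both genotypes, most cytosolic synthetase genes had a higher mean in rotenone than in vehicle, while the median of the mitochondrial genes lay near 0. The difference was above 0 for 16 of 18 cytosolic genes, with a median of 0.17, and for 6 of 8 mitochondrial genes, with a median of 0.01. Over all 12393 genes the median was 0.03 and 60.8% were above 0. The differences were small beside the spread of the arrays: with limma on the 4 groups, 0 of 26 members passed an adjusted p of 0.05, whereas 0.217% of all probe sets did. With the replicate number as a block, a term that compares arrays of the same number, 1 of 26 passed, Sars, against 2.46% of probe sets in either direction and 1.33% in the higher direction. At an unadjusted p under 0.05, 5 members passed without the block (7.90% of probe sets; 2 to 11 members when single arrays were left out, the fewest without knockout rotenone array 2 and the most without knockout rotenone array 3) and 13 with it (15.0% of probe sets). The 5 were Farsb, Gars, Nars and Yars, higher in rotenone, and Hars2, lower. The 13 were 11 cytosolic genes and Iars2, all higher in rotenone, where 7.96% of probe sets passed in that direction, and Hars2, which was lower. With the block the 13 became 8 without the arrays numbered 1, 4 without those numbered 2 and 11 without those numbered 3.

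Sars, the cytosolic seryl-tRNA synthetase, had the largest difference and was the member past the threshold. On arrays 1, 2 and 3 its level was 12.15, 11.99 and 11.66 in wild type with vehicle, and 12.43, 12.37 and 12.03 in wild type with rotenone. In HtrA2 KO it was 12.15, 11.94 and 11.62 with vehicle, and 12.41, 12.26 and 11.71 with rotenone. The groups overlapped in both genotypes, since array 3 was the lowest of each group, but within every same-numbered pair the rotenone array was the higher one. The 6 paired differences ran from 0.10, in knockout pair 3, to 0.38, in wild-type pair 2. The mean difference was 0.28, a 1.22-fold change, with a standard error of 0.14 and an adjusted p of 0.673 in limma without the block. With the block the standard error was 0.06 and the adjusted p 0.0262. The call held with the block without the 4 arrays numbered 3 (adjusted p 0.0303), and was lost without those numbered 1 (0.297) or 2 (0.270). A second Sars probe set gave 0.34 and an adjusted p of 0.0119 with the block.

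**Figure D1:**
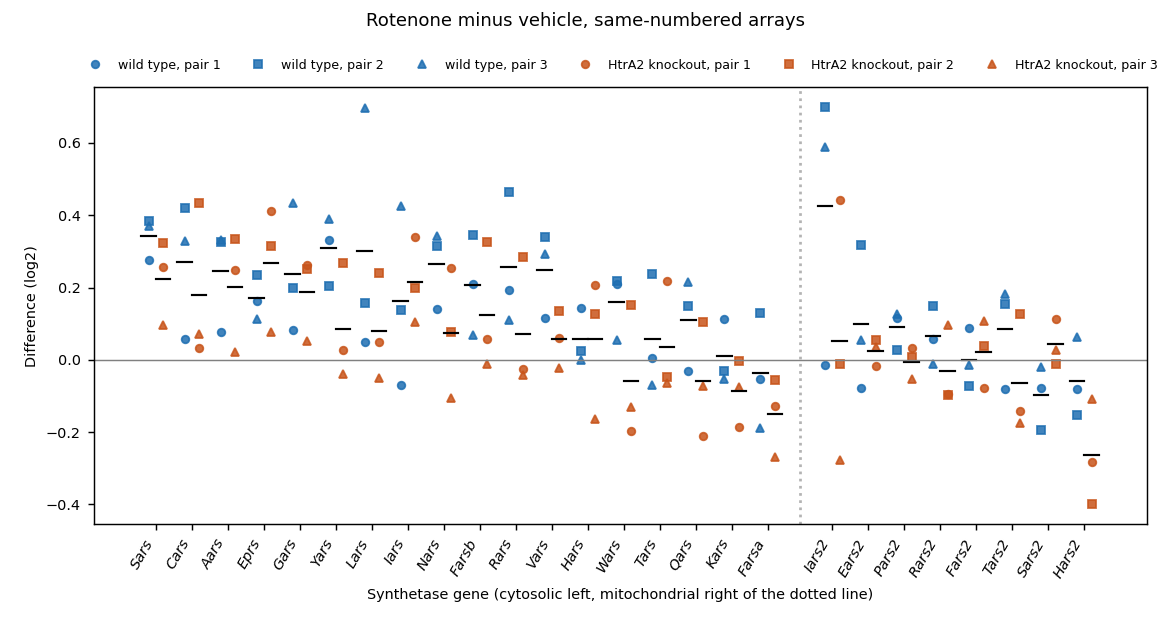
Difference in log2 level between rotenone and vehicle arrays of the same replicate number, for each synthetase gene (horizontal axis, cytosolic genes left and mitochondrial genes right of the dotted line). Points are the 6 pairs, 3 per genotype, and short bars are the mean of the 3 pairs of a genotype; 5 cytosolic genes had all 6 points above 0 and no mitochondrial gene did.

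Besides Sars, 4 cytosolic genes had a higher level in rotenone in all 6 pairs: Aars, Cars, Eprs and Gars, the synthetases for alanine, cysteine, glutamate with proline, and glycine. These 5 of 26 members compare with 6.51% of all probe sets; of the 18 cytosolic genes they are 27.8%, and of all genes 7.24% met the same condition. Aars differed by 0.22 (limma, SE 0.15, adjusted p 0.795; 0.123 with the block), with pairs from 0.02 to 0.34. Its level on arrays 1, 2 and 3 was 11.86, 12.06 and 11.50 in wild type with vehicle, 11.94, 12.38 and 11.83 with rotenone, and in HtrA2 KO 11.77, 11.90 and 11.43 with vehicle and 12.02, 12.23 and 11.45 with rotenone. The groups of Aars overlapped, and array 3 was the lowest of each. Cars differed by 0.22 (SE 0.12, adjusted p 0.724; 0.135 with the block), with pairs from 0.03 to 0.43. It read 10.55, 10.48 and 10.14 in wild type with vehicle, 10.61, 10.90 and 10.47 with rotenone, and in HtrA2 KO 10.40, 10.26 and 10.01 with vehicle and 10.43, 10.69 and 10.08 with rotenone. The groups of Cars overlapped too. For both genes the smallest differences lay in knockout pair 3 or in the pairs numbered 1. Eprs, whose single protein charges both glutamate and proline transfer RNAs, differed by 0.22 (SE 0.12, adjusted p 0.718; 0.105 with the block), with pairs from 0.08 to 0.41. It read 10.52, 10.81 and 10.55 in wild type with vehicle, 10.68, 11.04 and 10.66 with rotenone, and in HtrA2 KO 10.38, 10.79 and 10.43 with vehicle and 10.80, 11.11 and 10.51 with rotenone. Array 2 was the highest of each group, and the groups overlapped. Gars differed by 0.21 (SE 0.08, adjusted p 0.490; 0.137 with the block), with pairs from 0.05 to 0.43. None of the 4 passed the threshold in either fit.

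Another group of cytosolic genes had differences of like size but 1 or 2 pairs below 0. It comprised Yars (0.20), Lars (0.19), Iars (0.19), Nars (0.17), Farsb (0.17), Rars (0.16) and Vars (0.15), for tyrosine, leucine, isoleucine, asparagine, phenylalanine, arginine and valine. Of the 7, all but Vars had an unadjusted p under 0.05 with the block, and their adjusted p-values with it ran from 0.152 for Yars to 0.383 for Vars. In knockout pair 3, 6 of these 7 genes were below 0, all but Iars. At the low end stood Hars (0.06), Wars (0.05), Tars (0.05), Qars (0.03), Kars (-0.04) and Farsa (-0.09), for histidine, tryptophan, threonine, glutamine, lysine and phenylalanine. Kars and Farsa were each above 0 in 1 of 6 pairs.

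Synthetases inside and outside the multisynthetase complex had like medians. The 6 measured synthetases of the multisynthetase complex, Eprs, Iars, Kars, Lars, Qars and Rars, had a median of 0.18 and a range from -0.04 to 0.22. The 12 cytosolic genes outside the complex had a median of 0.17. Farsa and Farsb encode the alpha and beta subunits of one enzyme, and their differences were on opposite sides of 0, -0.09 (SE 0.08) and 0.17 (SE 0.06). Farsa read 9.12, 8.94 and 9.24 in wild type with vehicle and 9.07, 9.07 and 9.05 with rotenone, and in HtrA2 KO 9.02, 8.88 and 9.30 with vehicle and 8.90, 8.82 and 9.03 with rotenone. Its vehicle and rotenone arrays overlapped in both genotypes. Farsb read 9.89, 9.80 and 9.98 in wild type with vehicle and 10.10, 10.14 and 10.05 with rotenone, where the groups did not overlap. In HtrA2 KO it read 9.88, 9.80 and 9.94 with vehicle and 9.94, 10.13 and 9.93 with rotenone, and there they overlapped.

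The probe sets not chosen as representative mostly had the same sign. Of 22 further probe sets of 14 members, 18 had the sign of the representative one, and 15 of the 17 that belonged to cytosolic genes were above 0. Further probe sets of Aars (0.24), Eprs (0.25 and 0.27) and Iars (0.13) had the sign of the representative one. For Cars a dimmer probe set gave 0.04. For Hars a second probe set gave -0.03, and for Hars2 a second, dim one gave 0.06 against -0.16, so that the sign for both histidine genes depends on the probe set. Dim probe sets of Farsb (-0.03 against 0.17) and Fars2 (-0.03 against 0.01) also had the opposite sign. The other further probe sets of Farsb gave 0.14 and 0.19. For Qars the other 3 gave 0.00, 0.07 and 0.21. For Wars the other 3 gave 0.13, 0.01 and 0.12, against 0.05 for the representative one.

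Promoter sequences were examined because ATF4, with C/EBP partners, binds the element TGATGNAA (N is any base; both strands were searched). RefSeq promoters of assembly GRCm38.p6 were used, from 250 bases before to 50 after the annotated start. A gene counted where any of its promoters held the letters. This was so for 4.51% of the 27025 genes with promoters and for 3.13% of the 9887 measured genes among them. Among the synthetases, 5 of the 11 measured cytosolic genes with an entry held them, and 0 of the 6 measured mitochondrial genes with an entry. Among the genes of a list of known ATF4 programme genes, 9 of 25 did. For each gene, the match nearest the start is given here in a window of 30 bases on the strand of the gene, 5′ to 3′, with the element in capitals; TTGCATCA and TTTCATCA are the same element read from the other strand. They are shown so that the element can be set beside the differences of these genes.
Aars, chr8:111033840-111033869, plus strand: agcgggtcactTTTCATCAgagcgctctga
Gars, chr6:55037960-55037989, plus strand: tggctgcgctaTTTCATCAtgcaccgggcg
Iars, chr13:49682126-49682155, plus strand: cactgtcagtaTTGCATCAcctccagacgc
Tars, chr15:11399655-11399684, minus strand: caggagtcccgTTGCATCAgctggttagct
Yars, chr4:129189895-129189924, plus strand: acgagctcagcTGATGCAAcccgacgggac
The match in Gars began 30 bases and that in Tars 15 bases before the start, and those in Aars, Iars and Yars lay just after it. The 5 genes with the element had rotenone differences from 0.05 (Tars) to 0.22 (Aars), with a median of 0.20. The 6 without it, Eprs, Farsa, Farsb, Kars, Qars and Sars, ran from -0.09 (Farsa) to 0.28 (Sars), with a median of 0.10. The 7 cytosolic genes with no promoter entry had a median of 0.16. The ranges overlapped, and Sars, the one member past the threshold, did not hold these letters in the promoter searched. Whether the element bears on the differences was not tested.

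The mitochondrial synthetase genes stayed close to 0 except at both ends of their range. Iars2 had the largest positive difference of the 8, 0.24 (limma, SE 0.18, adjusted p 0.821; 0.306 with the block), and Hars2 the largest negative one, -0.16 (SE 0.06, adjusted p 0.537; 0.254 with the block). The other 6, Ears2, Pars2, Rars2, Fars2, Tars2 and Sars2, lay between -0.03 and 0.06, each with a standard error of at least 0.05. Iars2 read 6.98, 6.43 and 7.22 in wild type with vehicle and 6.96, 7.13 and 7.81 with rotenone, and in HtrA2 KO 6.56, 6.89 and 7.42 with vehicle and 7.01, 6.88 and 7.14 with rotenone. Its groups overlapped throughout, its pairs ran from -0.28 to 0.70, and it was above 0 in 3 of 6. Class and signal cannot be told apart: all cytosolic probe sets had means of 9.04 to 12.69 (percentiles 74.0 to 98.8) and all mitochondrial ones 7.04 to 8.73 (percentiles 40.5 to 69.5). Values made with RMA usually understate the differences of dim probe sets.

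Set side by side, the 2 genes for the same amino acid mostly had unlike differences. For serine, Sars differed by 0.28 and Sars2 by -0.03. For isoleucine, Iars differed by 0.19 and Iars2 by 0.24. For arginine, Rars differed by 0.16 and Rars2 by 0.02, and for threonine both were small, Tars at 0.05 and Tars2 at 0.01. For phenylalanine, Farsa and Farsb stood at -0.09 and 0.17 and Fars2, a single-chain enzyme, at 0.01. Eprs, at 0.22, corresponds to 2 mitochondrial genes, Ears2 at 0.06 and Pars2 at 0.04. Hars and Hars2, which are neighbours in the genome, differed by 0.06 and -0.16. No difference between the genes of a pair was tested.

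**Figure D2:**
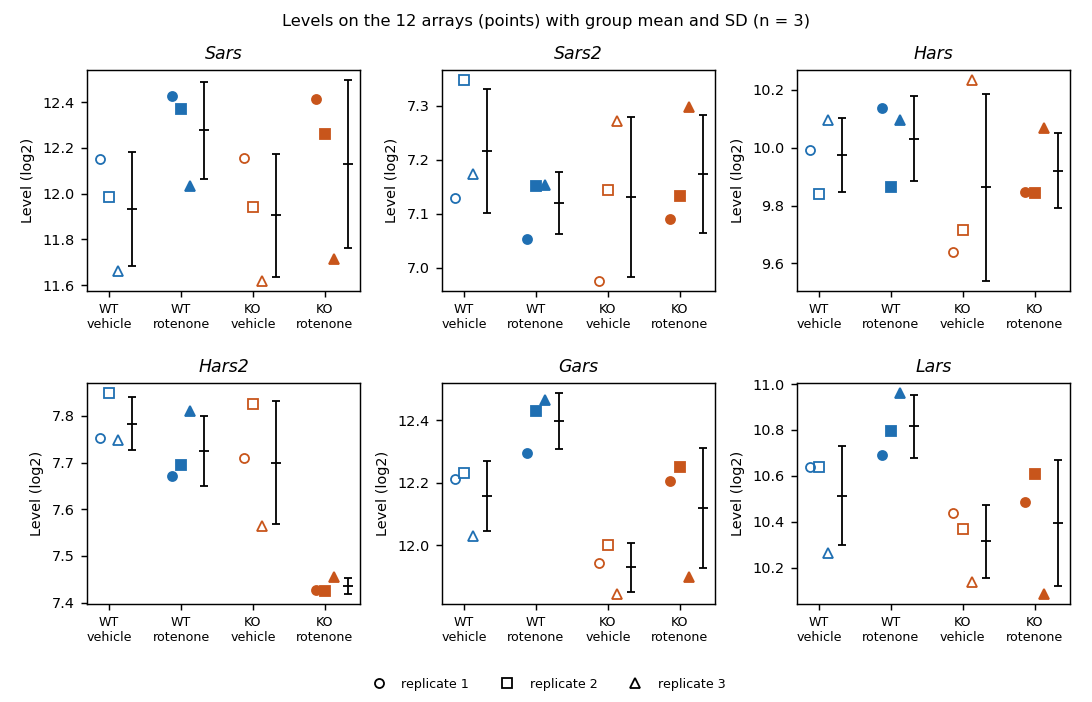
Log2 level (vertical axis, a separate scale for each gene) of Sars, Sars2, Hars, Hars2, Gars and Lars on the 12 arrays, by group (horizontal axis). Points are arrays, their shape is the replicate number, and bars are the group mean ± SD (n = 3); Sars is higher in rotenone than in vehicle for each number of both genotypes, and the 3 HtrA2 KO rotenone arrays of Hars2 lie at 7.43 to 7.46, below all others.

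Taken by genotype, the cytosolic median was 0.22 in wild type and 0.08 in HtrA2 KO, and the test of that difference for each gene is the interaction given after them. In wild type, 17 of 18 cytosolic genes were above 0, beside 6 of 8 mitochondrial genes with a median of 0.08 and an all-gene median of 0.02. With limma 0 of 26 members, each read by its representative probe set, passed (0.0133% of probe sets did), nor with the block (0.628%). The second Sars probe set gave 0.445 in wild type, with an adjusted p of 0.0460 in limma with the block. At an unadjusted p of 0.05, 4 members passed without the block (4.36%) and 11 with it (9.67%). The 4, Farsb, Gars, Nars and Yars, became 1 without vehicle array 3 or rotenone array 2 of wild type, and 2 without vehicle array 1. With the block the 11 became 9, 2 and 5 without the arrays numbered 1, 2 and 3. For Farsb, Gars, Lars, Nars and Yars, 5 cytosolic genes, every wild-type rotenone array was above every wild-type vehicle array, as for 4.47% of probe sets. Yars read 10.56, 10.58 and 10.37 with vehicle and 10.89, 10.78 and 10.76 with rotenone, a difference of 0.31 (SE 0.12). Lars, for leucine, read 10.64, 10.64 and 10.26 with vehicle and 10.69, 10.80 and 10.96 with rotenone, a difference of 0.30 (SE 0.15). In Lars the paired differences were 0.05, 0.16 and 0.70, so pair 3 held most of it. The wild-type cytosolic median was 0.14 without vehicle array 3 and 0.13 without rotenone array 2.

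In HtrA2 KO, 14 of 18 cytosolic genes were above 0 with a median of 0.08, and 4 of 8 mitochondrial genes with a median of 0.01; the all-gene median was 0.03. With limma 0 of 26 members passed (0.00884% of probe sets did), nor with the block (0.301%); at an unadjusted p of 0.05, 1, Hars2, passed without the block (3.66%) and 3 with it (8.33%). These 3 were Eprs (0.27) and Sars (0.22), higher, and Hars2 (-0.26, SE 0.09), lower; with the block 0 members passed without the arrays numbered 1 or 2, and 6 without those numbered 3. The median rested on rotenone array 3. By pair, the cytosolic medians were 0.06, 0.22 and -0.04, with 13, 15 and 6 of 18 genes above 0, whereas in wild type they were 0.12, 0.23 and 0.25. Without knockout rotenone array 3 the knockout median was 0.22, and the number of members with an unadjusted p under 0.05 in the averaged effect went from 5 to 11. Without knockout rotenone array 2 the knockout median was 0.04, and without knockout vehicle array 1 it was 0.13. Leaving out all 4 arrays numbered 3 gave cytosolic medians of 0.20 in wild type, 0.16 in knockout and 0.18 for the average.

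Hars2, the mitochondrial histidyl-tRNA synthetase, was the member whose knockout groups did not overlap. It read 7.71, 7.83 and 7.56 in HtrA2 KO with vehicle and 7.43, 7.43 and 7.46 with rotenone. In wild type it read 7.75, 7.85 and 7.75 with vehicle and 7.67, 7.69 and 7.81 with rotenone. All 3 knockout rotenone arrays were thus below the other 9, a condition whose share over all probe sets was not counted. Non-overlapping and lower in knockout rotenone than in knockout vehicle were 1 of 26 members and 4.06% of probe sets. A second Hars2 probe set, dim at a mean of 5.36, gave 0.06 for the averaged effect and 0.05 for rotenone in HtrA2 KO. For knockout minus wild type in rotenone it gave 0.002, so the Hars2 differences given here and below rest on 1 probe set.

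Whether the rotenone effect differed between genotypes was tested as the interaction in the same fit. In limma 0 of 26 members passed with or without the block, where 0.00% of probe sets did, and 0 had an unadjusted p under 0.05, the share of probe sets being 0.362% without the block and 1.30% with it. The smallest unadjusted p of any member was 0.123 without the block, for Hars2, and 0.0990 with it, for Iars2. For Sars the interaction was -0.12, with a 95% interval from -0.74 to 0.50 without the block and from -0.39 to 0.15 with it. The median over cytosolic genes was -0.11, over mitochondrial genes -0.10 and over all genes 0.00. Without knockout rotenone array 3 the cytosolic median was -0.05, and without knockout rotenone array 2 it was -0.19.

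Most cytosolic synthetase genes had lower means in HtrA2 KO than in wild type in both treatments, and for most of them the arrays of the genotypes overlapped. Every knockout array was below every wild-type array for 1 of 18 in vehicle (1.79% of probe sets) and 4 of 18 in rotenone (3.80%). With vehicle, 17 of 18 cytosolic genes were below wild type with a median of -0.10, while 45.8% of all genes were below and the all-gene median was 0.01. Of the mitochondrial genes 5 of 8 were below, with a median of -0.06. With limma 0 of 26 passed (0.00442% of probe sets), nor with the block (0.0177%), and 0 had an unadjusted p under 0.05 without the block (1.04%), and 1, Gars, with it (2.95%). The cytosolic median depended on single arrays: it was -0.05 without knockout vehicle array 2 or array 3, -0.07 without wild-type vehicle array 2, and -0.13 without wild-type vehicle array 3. So did the count: 4 of 18 genes were above wild type without wild-type vehicle array 1 or 3. The count was 5 without wild-type vehicle array 2 or knockout vehicle array 2 or 3, and 1 without knockout vehicle array 1. In pairs 1, 2 and 3, 12, 14 and 14 of 18 cytosolic genes were below wild type. The vehicle and rotenone comparisons between genotypes use different arrays, but each shares arrays with the rotenone comparisons above. The medians of the ATF4 programme and of the proliferation markers also lay below wild type, with 0 genes of either past the threshold with or without the block, and their part was not tested. Of ATF4 programme genes, 0 of 27 were above wild type in vehicle (median -0.12) and 4 of 27 in rotenone (median -0.14), and of proliferation markers 0 of 7 (median -0.24) and 1 of 7 (median -0.25). Medians of the remaining lists lay on both sides. Those of the fibroblast, leukocyte, epithelial, endothelial, neural and muscle markers were above wild type in both treatments. Those of the complex scaffold, mitochondrial tRNA maturation, mitochondrial translation factors and eIF2 kinases were below it in both.

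With rotenone, 17 of 18 cytosolic genes were again below wild type, with a median of -0.17, and 6 of 8 mitochondrial genes, with a median of -0.18; the all-gene median was 0.02. With limma 0 of 26 passed (0.00442% of probe sets), nor with the block (0.0398%). At an unadjusted p of 0.05, 6 members were lower without the block, against 2.63% of probe sets in that direction, and 10 with it, against 6.98%. The 6 were Gars, Lars, Wars, Yars, Hars2 and Rars2. For 7 members every knockout array was below every wild-type array: Farsa, Gars, Lars, Yars, Hars2, Pars2 and Rars2, as for 3.80% of probe sets. Pair 3 carried the largest part, with all 18 cytosolic genes lower and a median of -0.31, beside -0.13 and -0.14 in pairs 1 and 2. Without knockout rotenone array 3 the cytosolic median was -0.13, 12 of 18 genes were below wild type and 3 members had an unadjusted p under 0.05. With the block the 10 became 11, 7 and 3 (counted in either direction) without the arrays numbered 1, 2 and 3. The mitochondrial median was -0.08 without wild-type rotenone array 3 and -0.12 without all arrays numbered 3.

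**Figure D3:**
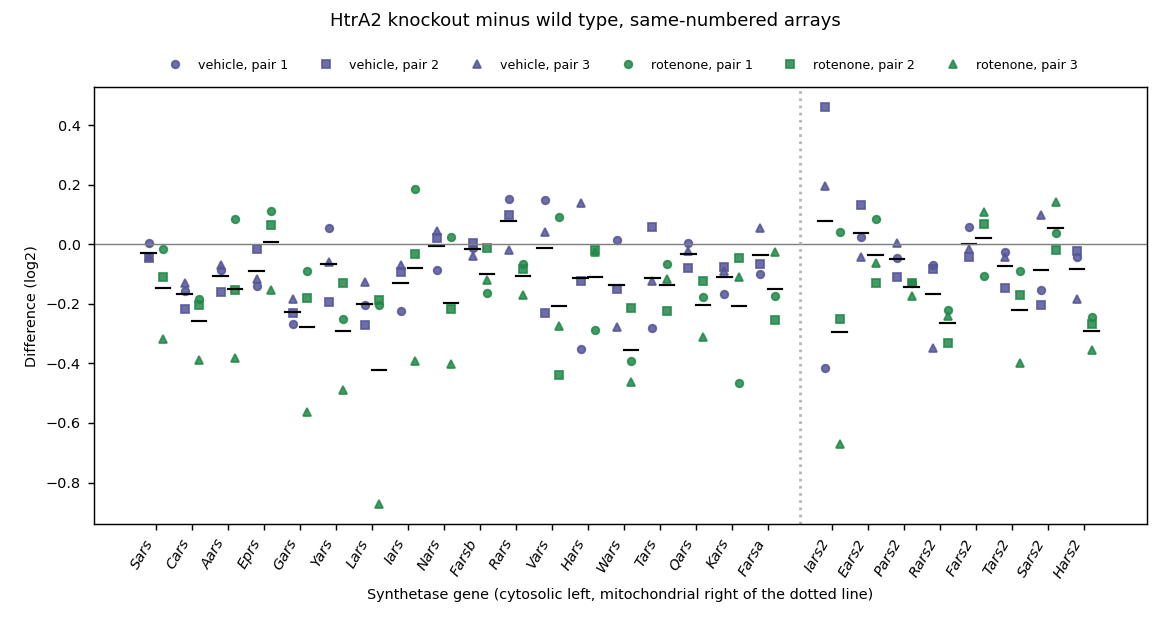
Difference in log2 level between HtrA2 KO and wild-type arrays of the same replicate number (vertical axis), in vehicle and in rotenone, for each synthetase gene (horizontal axis). Points are pairs and short bars are the mean of 3 pairs; most points lie below 0, and the lowest of all is Lars in rotenone pair 3, at -0.87.

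Lars had the largest genotype difference in rotenone, -0.42 (limma, SE 0.15, adjusted p 0.835; 0.238 with the block). Its HtrA2 KO arrays read 10.44, 10.37 and 10.14 with vehicle and 10.49, 10.61 and 10.09 with rotenone, against the wild-type values given above. The pairs in rotenone were -0.20, -0.19 and -0.87, so that array 3 set its size. Wars, for tryptophan, differed by -0.36 (SE 0.16, adjusted p 0.835; 0.200 with the block). It is read here by a probe set of a class that may also bind other transcripts, and its other 3 probe sets gave -0.23, -0.07 and -0.14.

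Gars and Rars2 were lower in knockout in both treatments, with no overlap in either. Gars, the glycyl-tRNA synthetase of both compartments, read 12.21, 12.23 and 12.03 in wild type and 11.94, 12.00 and 11.85 in HtrA2 KO with vehicle, a difference of -0.23 (SE 0.11). With rotenone it read 12.30, 12.43 and 12.46 against 12.21, 12.25 and 11.90, a difference of -0.28 (SE 0.11). Non-overlapping and lower in knockout were 1.79% of probe sets in vehicle and 3.80% in rotenone. The share of probe sets that met both conditions was not counted. Rars2, the mitochondrial arginyl-tRNA synthetase, read 8.79, 8.80 and 8.82 in wild type and 8.72, 8.72 and 8.47 in HtrA2 KO with vehicle, and 8.85, 8.95 and 8.81 against 8.63, 8.62 and 8.57 with rotenone. The differences were -0.17 (SE 0.09) in vehicle and -0.26 (SE 0.09) in rotenone. Over all 6 same-numbered pairs, 7 members were lower in knockout each time: Cars, Gars, Kars, Lars, Hars2, Rars2 and Tars2. Of all probe sets 3.99% were. Kars, for lysine, differed by -0.11 in vehicle and -0.21 in rotenone, with standard errors of 0.12, and Cars by -0.17 and -0.26, with standard errors of 0.17.

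The replicate number moved more synthetase genes past the threshold than either rotenone or genotype. Between arrays numbered 3 and those numbered 1 and 2, with the group accounted for, 12 of 26 members passed an adjusted p of 0.05 in limma, against 23.9% of probe sets. Lower on arrays 3 were 8 members, all cytosolic, against 11.3% of probe sets in that direction. Rars fell by 0.56, Tars by 0.52, Aars by 0.46, Sars by 0.46, Cars by 0.36, Wars by 0.33, Eprs by 0.23 and Yars by 0.21, with standard errors of 0.07 to 0.08. Higher were 4 members, against 12.6% of probe sets: the mitochondrial genes Iars2 (0.54) and Tars2 (0.31), and the cytosolic genes Hars (0.26) and Qars (0.21). The medians were -0.19 for cytosolic, 0.04 for mitochondrial and -0.04 for all genes. Rars read 11.28, 11.17 and 10.83 in wild type with vehicle, 11.47, 11.64 and 10.94 with rotenone, and in HtrA2 KO 11.44, 11.27 and 10.82 with vehicle and 11.41, 11.56 and 10.77 with rotenone. Array 3 of Rars was the lowest of its group in all 4 groups. The number of members past the threshold was 8 without knockout vehicle array 3, knockout rotenone array 1 or knockout rotenone array 3, and at most 15 when any other array was left out. The 4 higher members became 2 after repeated quantile normalization, and 2 without array 2 or 3 of either vehicle group, or without array 1 or 3 of knockout rotenone.

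Other gene lists moved with the replicate number, and their part in the synthetase differences was not tested. On arrays 3, 20 of 27 measured ATF4 programme genes were lower and 1 was higher, with a median of -0.46. All 7 measured proliferation markers were higher, with a median of 1.43, and their summed level was 13.44 to 13.59 on arrays 3 and 12.19 to 12.61 on the others (log2). Of 11 leukocyte markers 6 were higher, with a summed level of 11.03 to 11.16 against 10.41 to 10.67, and of 8 muscle markers 4 were. Of 11 fibroblast markers 5 were lower and 1 was higher. Fewer cells of a kind and less RNA per cell cannot be told apart in these cultures.

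**Figure D4:**
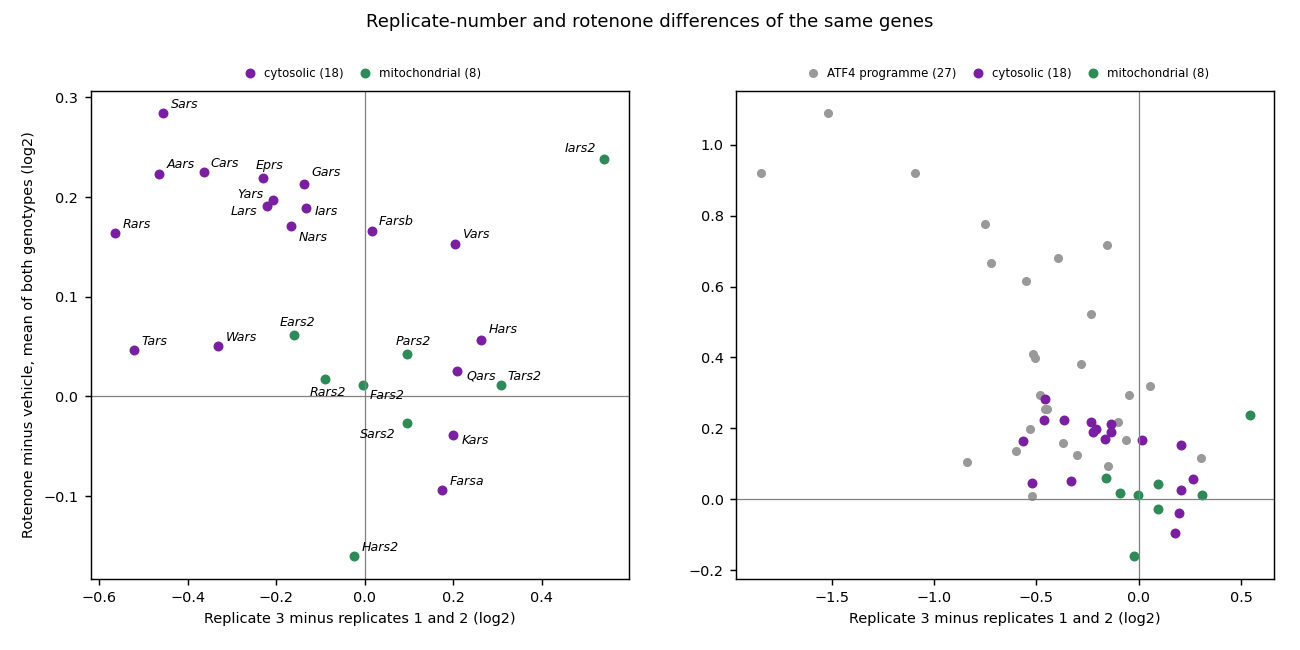
Difference between rotenone and vehicle, averaged over genotypes (vertical axis, log2), against the difference between arrays numbered 3 and arrays numbered 1 and 2 (horizontal axis, log2), one point per gene. The left panel names the 26 synthetase genes, and the right panel adds the 27 ATF4 programme genes on a wider scale. Rars, Sars, Aars, Cars, Eprs and Yars are among the genes at upper left, higher in rotenone and lower on arrays 3. Iars2 lies farthest to the right of the synthetases, at 0.54.

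The genes that work around the synthetases were examined as further lists. ATF4 programme genes had larger rotenone differences than the synthetases: all 27 measured genes were above 0, with a median of 0.30, and 2 passed the threshold, Stc2 (0.72), a secreted glycoprotein, and Ddit4 (0.52), an inhibitor of mTORC1. With the block 15 passed, among them Atf4 itself (0.40), Trib3 (1.09), Chac1 (0.92), Ddit3 (0.92) and the asparagine synthetase Asns (0.25). Nars, which charges asparagine, differed by 0.17. In contrast, the 3 scaffold genes of the multisynthetase complex were all below 0, Aimp1 at -0.03, Eef1e1 at -0.04 and Aimp2 at -0.23 (limma, SE 0.08, adjusted p 0.495; 0.102 with the block). For the scaffold genes 0 of 3 passed in either fit.

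None of the genes of the remaining translation lists passed the threshold in the averaged rotenone effect, with or without the block (limma; 0.217% and 2.46% of probe sets). These were 6 cytosolic elongation factors with a median of -0.01, 4 genes of tRNA quality control with a median of 0.04, 13 genes of mitochondrial tRNA maturation with a median of -0.01 and 5 mitochondrial translation factors with a median of 0.01. Among the maturation genes the extremes were Trmt10c (0.27), a subunit of mitochondrial RNase P, and Gtpbp3 (-0.22), which modifies mitochondrial transfer RNAs. The 9 measured genes of eIF2 kinases, the GCN2 pathway and eIF2B had a median of -0.08, with 3 above 0. Eif2ak4, which encodes GCN2, differed by 0.14 (SE 0.11), and Impact, an inhibitor of GCN2 activation, by 0.27 (SE 0.11, adjusted p 0.608; 0.113 with the block).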

How the data were processed

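Per the submitters' processing notes, the authors made the deposited log2 values with RMA, with a version and settings that the sources used here do not name; it usually compresses differences near background. The file held 22690 probe sets. After 64 array controls were left out, 22626 were tested, of which 20380 had 1 gene symbol, 691 several and 1555 none in the platform annotation. Values ran from 3.19 to 14.59 and array medians from 7.53 to 7.58. Detection calls and scanner intensities were not used here, so precision is limited by how many arrays there are.

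Members, lists and the contrast of replicate 3 were chosen with earlier results of these data known. Members are named by a fixed rule: every member by value or range. The member past the threshold and the 5 largest rises in rotenone are also given per array. So are Hars2 and Farsa among the falls, while Kars and Sars2, the only others below 0, are given by their differences. Genes for the same amino acid are given at least by their differences. The few others shown per array were singled out after their values were seen. The assignment to the multisynthetase complex also followed the values.

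Differences were tested with limma 3.58.1 in R 4.3.3 (lmFit, eBayes, two-sided; 4 group means over 12 arrays), with Benjamini-Hochberg adjustment over all 22626 probe sets and a threshold of 0.05. The procedure was tested on simulated data. Same-numbered arrays deviated together in all 18 pairs (r from 0.289 to 0.829 across probe sets), so the numbers were treated as pairing the arrays. This pairing comes from the values, since the labels do not state it. Number 3 stands apart clearly, and this does most of the pairing. Deviations were taken from each group's mean, so a shared shift of number 3 also makes the other arrays deviate together. Arrays of different numbers were not compared, so the correlations cannot show whether the other numbers pair arrays. Alternatives were the replicate block, leaving out each array or number, repeated quantile normalization, a dim-probe filter at the 40th percentile, array weights, an intensity trend and the mean of a gene's probe sets. Promoters came from a RefSeq table of GRCm38.p6, and no coordinates were taken from the array annotation, whose build the sources do not name. Protein sequences were not used here.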

Additional observations from a re-analysis of the deposited data

How the results depend on the processing

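The number of members past the threshold stayed at 0 for the rotenone effect in wild type, in knockout, both genotype comparisons and the interaction under all 24 alternatives, and for the averaged rotenone effect under 22 of 24. It was 1, Sars, with the replicate block, with or without replicate 3, and 0 with the block without replicate 1 or 2. Of all probe sets, 49 passed for the averaged effect, 557 with the block, 346 with array weights, 27 with the mean of a gene's probe sets, 7 to 68 without single arrays, 506 without replicate 3 (1054 with the block), 0 without replicate 1 (65 with the block) and 0 without replicate 2 (44 with the block); the cause was not tested. With the block the counts went from 3 to 142 in wild type, 2 to 68 in knockout, 1 to 4 for genotype in vehicle and 1 to 9 in rotenone; it changed no other call. Without single arrays or replicate numbers the cytosolic medians ran from 0.12 to 0.24 (average), 0.13 to 0.284 (wild type), 0.023 to 0.222 (knockout), -0.130 to -0.052 (genotype in vehicle), -0.230 to -0.132 (genotype in rotenone) and -0.189 to -0.052 (interaction). The mitochondrial medians ran from 0.0081 to 0.035, 0.029 to 0.087, -0.029 to 0.026, -0.091 to -0.013, -0.219 to -0.080 and -0.120 to -0.076. For genotype in vehicle the cytosolic median was -0.074 without replicate 1, -0.080 without replicate 3 and -0.074 with the mean of a gene's probe sets, and the mitochondrial one -0.031 without replicate 2. For genotype in rotenone the mitochondrial median was -0.117 without replicate 3. These were the same with the block. Without single arrays the averaged effect of Kars ran from -0.081 to 0.0065, changing sign without wild-type rotenone array 2. That of Sars2 ran from -0.066 to 0.011, above 0 without wild-type vehicle array 2 (0.0057), knockout vehicle array 3 (0.0082) or replicate 2 (0.011, with and without the block). Synthetases differing by replicate number were 10 after repeated quantile normalization, and 8 to 15 without single arrays.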
